A study of Mus musculus with 2 samples.

Results

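The platelet-derived growth factor (PDGF) genes of the mouse, 4 ligands (Pdgfa, Pdgfb, Pdgfc and Pdgfd) and 2 receptors (Pdgfra and Pdgfrb), were followed across the cell types of the fetal testis. They were taken by gene symbol, and all 6 were found among the 32285 genes measured. The study asked which interstitial cells of the embryonic testis give rise to fetal Leydig cells. Whole testes of E14.5 embryos from Nr5a1-cre mice crossed with Rosa-tdTomato mice were frozen in liquid nitrogen, and nuclei were profiled with the 10x multiome assay, which reads RNA and open chromatin (ATAC) from the same nucleus. The Nr5a1 promoter drives Cre in the supporting and steroidogenic lineages of the gonad, and the cross places a red fluorescent reporter in the cells that have used it. There was 1 group, with no mutant or treated animals, and no source used here states how many embryos were pooled. Each assay had 1 library, so no difference below has a replicate check and no p-value is given.

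PDGF ligands are secreted dimers of A, B, C or D chains that bind and pair receptor tyrosine kinases, and receptor pairing starts signalling through SRC family kinases, phosphoinositide 3-kinase, phospholipase C gamma and the RAS pathway. PDGF-A and PDGF-B are processed inside the cell, whereas PDGF-C and PDGF-D are secreted in a latent form that proteases cut outside the cell. PDGFRA binds A, B and C chains and PDGFRB binds B and D chains, and the A chain of the fetal testis cords and its interstitial receptor PDGFRA are known for their part in fetal Leydig cell development, while PDGF-B of endothelium is known for drawing PDGFRB-positive pericytes to vessels.

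After filtering, 7198 of 9833 barcodes were kept, with a median of 7948 UMIs (counted RNA molecules), 3157.5 genes and 4477 ATAC fragments per nucleus, and each barcode carried both assays. Joint clustering without the 6 PDGF genes gave 11 classes that could be named from marker genes and 1 that could not. Progenitor-like nuclei (2281, with markers of steroidogenic progenitors), contractile-like nuclei (1055), germ-like nuclei (974), Sertoli-like nuclei (819), Leydig-like nuclei (742), surface epithelium-like nuclei (576) and mesonephric mesenchyme-like nuclei (391) made up most of the testis. The smaller classes were endothelial-like (95), pericyte-like (66), immune-like (68) and erythroid-like (45), and 86 nuclei led by Pax8 stayed unnamed. The summed supporting cell list stood at 737 CPM (UMIs per 1000000 UMIs of the class) in these Pax8-led nuclei and at no more than 135 CPM elsewhere, and the mesonephric duct list at 50 CPM and no more than 26.1 CPM, but the duct list had the higher standardised score. Where doublets were removed by an automatic threshold the supporting list had the higher score, and the study classed its own Pax8-positive cluster as supporting-like. Median depth ran from 5676 UMIs in the immune-like class to 15504.5 in the germ-like class. Removing nuclei called doublets by an automatic threshold (17.5% of nuclei, against the 6.13% removed here by rank) moved 25 of the 72 class levels of the PDGF genes by over 1.5 times, and the levels so moved are given under both settings. RNA outside nuclei was not removed: the summed Leydig marker list reached 4862 CPM in Leydig-like nuclei and 263 to 702 CPM in the other classes, and its part in the low PDGF levels was not tested.

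The DNA just before 3 of the PDGF gene starts, and the middle of an open region upstream of Pdgfra that is taken up with the ATAC data, are shown so that the start sites compared below can be read as sequence. They come from RefSeq (GRCm38.p6), in lower case, 5′ to 3′ on the gene's strand, with capitals on any match to 1 of 6 short motifs. The motifs, searched on both strands, were the nuclear receptor half-site AGGTCA, the GATA motif AGATAA, the GC box GGGCGG, the CCAAT box CCAAT, the TATA box TATAAA and the E-box CAGCTG, and no 2 matches overlapped in the sequences printed.
Pdgfra promoter, chr5:75152001-75152250, plus strand: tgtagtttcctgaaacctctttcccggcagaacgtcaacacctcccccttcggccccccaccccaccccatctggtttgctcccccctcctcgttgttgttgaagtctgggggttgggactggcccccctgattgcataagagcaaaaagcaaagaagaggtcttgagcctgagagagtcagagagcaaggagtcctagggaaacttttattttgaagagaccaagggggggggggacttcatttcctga
Pdgfra upstream peak, middle 300 bases, chr5:75148552-75148851, plus strand: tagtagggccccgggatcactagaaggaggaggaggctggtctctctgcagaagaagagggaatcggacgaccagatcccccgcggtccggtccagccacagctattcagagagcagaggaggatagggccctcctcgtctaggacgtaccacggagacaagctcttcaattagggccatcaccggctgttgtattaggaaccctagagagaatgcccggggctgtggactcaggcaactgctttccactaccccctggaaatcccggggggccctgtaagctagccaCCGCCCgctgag
Pdgfc promoter, chr3:81036166-81036415, plus strand: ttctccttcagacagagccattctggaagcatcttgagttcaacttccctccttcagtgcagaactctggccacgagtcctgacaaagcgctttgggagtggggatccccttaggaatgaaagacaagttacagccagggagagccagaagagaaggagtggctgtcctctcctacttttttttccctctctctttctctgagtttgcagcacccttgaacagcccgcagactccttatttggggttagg
Pdgfd promoter, chr9:6168236-6168485, plus strand: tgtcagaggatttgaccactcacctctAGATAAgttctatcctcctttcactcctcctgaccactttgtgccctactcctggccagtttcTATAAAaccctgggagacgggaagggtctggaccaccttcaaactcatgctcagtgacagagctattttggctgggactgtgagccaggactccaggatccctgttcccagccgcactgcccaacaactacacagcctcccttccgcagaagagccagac
The Pdgfra and Pdgfc promoters held none of the 6 motifs. The Pdgfd promoter held AGATAA from base 28 and TATAAA from base 91, and the upstream Pdgfra peak held the reverse complement of GGGCGG from base 289. AGATAA was found in 9.99% and TATAAA in 12.4% of 32851 RefSeq promoters of the same length, and GGGCGG in 19.5% of the middle 300 bases of 109175 peaks. In promoters, GGGCGG was present in 32.7%, AGGTCA in 14%, CCAAT in 33.8% and CAGCTG in 13.0%. GC content was 54.4% at Pdgfra, 50.8% at Pdgfc and 53.6% at Pdgfd, near the promoter median of 52.4%, while 2 Pdgfa entries, not printed, had 66.4% and 72.4%.

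Levels of the ligands and receptors were compared as CPM of the summed UMIs of a class, with exact 95% intervals of the count in parentheses. The intervals cover counting error only, as if each UMI were drawn on its own, and not differences between the nuclei of a class. Neighbours in an order, taken with doublets removed by rank unless stated, are called separated where the interval of their ratio leaves out 1. A level at least 2 times that of the next class was reached by 3 of the 6 genes, Pdgfa, Pdgfb and Pdgfrb, against 18.7% of 13473 genes with at least 200 UMIs. With the automatic doublet threshold Pdgfd reached it as well, and the share of all genes was not counted in that setting. The plot of levels by class shows the genes at different places: Pdgfa in Sertoli-like, Pdgfb in endothelial-like, Pdgfc and Pdgfd in Pax8-led and surface epithelium-like, Pdgfra in interstitial and Pdgfrb in pericyte-like nuclei.

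**Figure D1:**
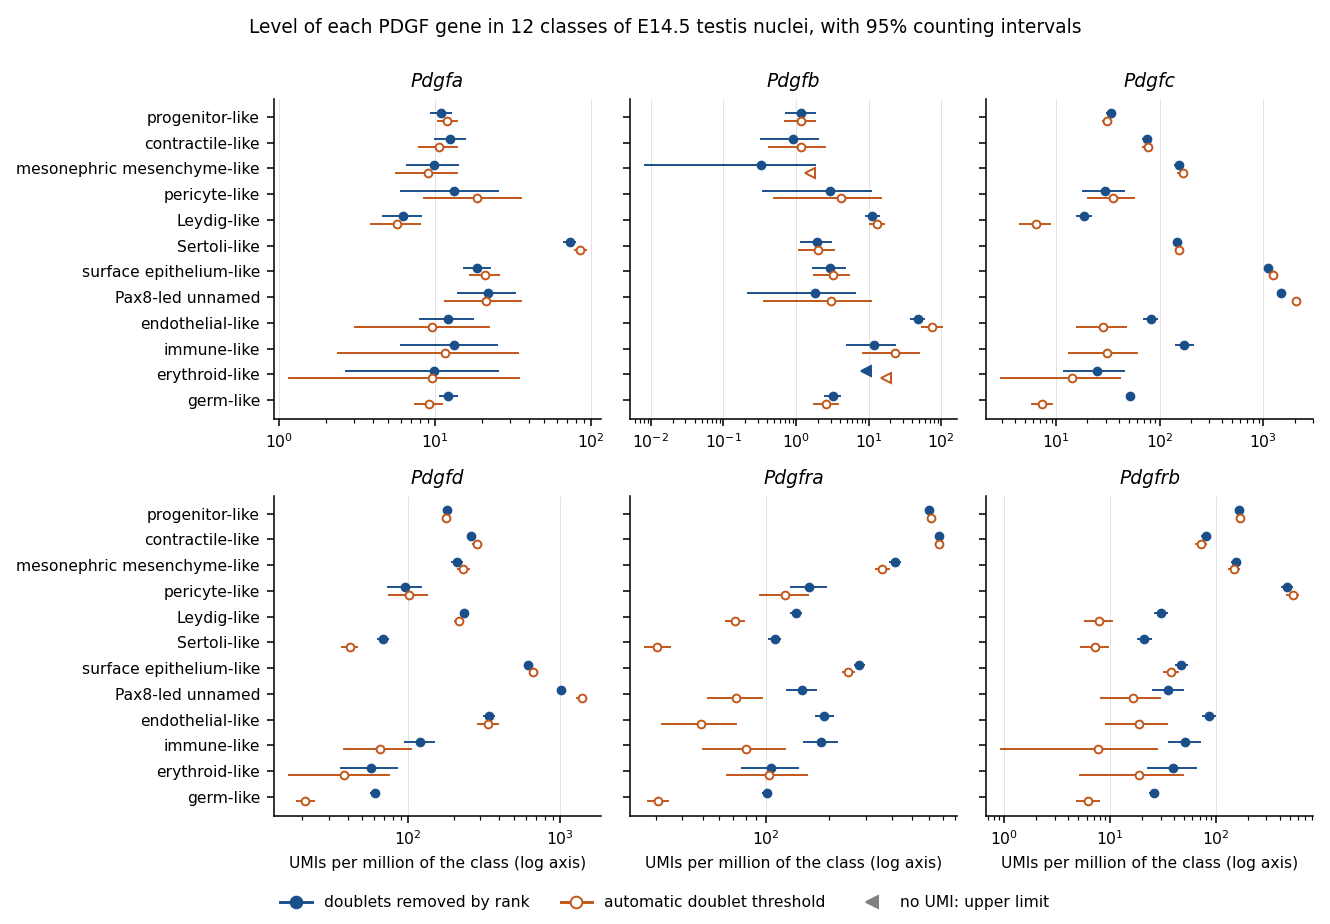
Level of each PDGF gene, in CPM (log axis), in 12 classes of nuclei (rows), with bars for exact 95% counting intervals, for doublets removed by rank (filled) or by an automatic threshold (open), and arrowheads for upper limits at no UMI. Pdgfa is highest in Sertoli-like (72.5 CPM), Pdgfb in endothelial-like (47.4), Pdgfc and Pdgfd in Pax8-led (1479 and 1026), Pdgfra in contractile-like (669) and Pdgfrb in pericyte-like nuclei (474).

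Pdgfa (ENSMUSG00000025856), the A chain, was highest in Sertoli-like nuclei, the somatic cells of the testis cords, at 72.5 CPM (67.2–78.1; 700 UMIs). This was 3.32 times (2.21–5.22) the level in the next class, the Pax8-led nuclei at 21.8 CPM (13.98–32.5), and 6.65 times (5.66–7.84) the level in progenitor-like nuclei. Surface epithelium-like nuclei had 18.6 CPM (15.3–22.5), pericyte-like 13.2 and immune-like 13.2, the last 2 from 9 UMIs each. Below the Sertoli-like class no neighbours were separated. Contractile-like nuclei had 12.5 CPM, germ-like 12.1, endothelial-like 12.1, progenitor-like 10.9 (9.42–12.5), erythroid-like 9.87 and mesonephric mesenchyme-like 9.78. Leydig-like nuclei were lowest at 6.16 CPM (4.6–8.08), so the highest class had 11.8 times the lowest. Sertoli-like nuclei, 819 of 7198, held 47.0% (44.5–49.6) of all 1488 Pdgfa UMIs. With nuclei thinned to 2000 UMIs each, 13.4% (11.1–15.9) of Sertoli-like nuclei had a Pdgfa UMI, against 44.7% before thinning, at a median of 9765 UMIs. Germ-like nuclei had 2.67% after thinning, and no class outside the Sertoli-like one passed 5.81%. With the automatic threshold the Sertoli-like share was 15.0% and the germ-like 0.808%, and the next highest was 8.62% (2.86–19.0) in pericyte-like nuclei, from 5 of 58 nuclei.

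Pdgfb (ENSMUSG00000000489), the B chain, was the least abundant gene, with 347 UMIs in all, and its levels are uncertain accordingly. Endothelial-like nuclei had 47.4 CPM (38.9–57.1; 110 UMIs), 4.05 times (1.98–9.61) the immune-like level of 11.7 CPM, which came from 8 UMIs. The endothelial-like level depended on which nuclei were kept, being 75.6 CPM with the automatic threshold and 59.3 CPM without nuclei above 50000 UMIs. Leydig-like nuclei came next with 11.3 CPM (9.11–13.8; 95 UMIs), separated from germ-like nuclei at 3.22 CPM by 3.50 times (2.53–4.87). Their level was 13.2 CPM with the automatic doublet threshold. Progenitor-like nuclei, by contrast, had 1.18 CPM from 21 UMIs, 0.105 (0.0620–0.169) of the Leydig-like level. The other levels were 2.96 CPM in surface epithelium-like, 2.94 in pericyte-like (2 UMIs), 1.97 in Sertoli-like, 1.82 in Pax8-led, 0.912 in contractile-like and 0.326 in mesonephric mesenchyme-like nuclei (1 UMI). With the automatic threshold the immune-like level was 23.1 CPM and the Pax8-led level 3 CPM, and no UMI was left in mesonephric mesenchyme-like nuclei. No UMI was found in erythroid-like nuclei, which allows up to 9.10 CPM. By share of UMIs, endothelial-like nuclei held 31.7% (26.8–36.9) and Leydig-like nuclei 27.4% (22.8–32.4), an order that turned with the automatic threshold, at 19.1% (14–25.1) and 36.8% (30.3–43.8). After thinning, a Pdgfb UMI was seen in 7.45% (3.05–14.7) of endothelial-like nuclei, 2.03% of Leydig-like nuclei and 0.617% of germ-like ones, and with that threshold in 16.7%, 2.37% and 1.21%.

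Pdgfc (ENSMUSG00000028019), the C chain, was highest in Pax8-led and surface epithelium-like nuclei. The study used this gene as a marker of its own epithelial cluster, so a high level there is not independent evidence, and Pdgfra was among its markers of interstitial cells. Pax8-led nuclei had 1479 CPM (1408–1553) and surface epithelium-like nuclei 1106 CPM (1079–1134), a ratio of 1.34 (1.27–1.41) that became larger with the automatic doublet threshold, at 2060 and 1228 CPM. A drop of 6.41 times (5.34–7.75) followed, from the surface epithelium-like to the immune-like nuclei, which had 173 CPM from 118 UMIs. That immune-like level fell to 30.7 CPM with the automatic threshold and to 28.6 CPM without nuclei above 50000 UMIs. Mesonephric mesenchyme-like nuclei had 153 CPM (140–168) and Sertoli-like nuclei 145 CPM (138–153), not separated from each other. The Sertoli-like level was 1.78 times (1.53–2.08) that of endothelial-like nuclei at 81.8 CPM, a class whose level was 28.4 CPM with the automatic threshold. Contractile-like nuclei had 74.6 CPM, germ-like 51.8 (7.32 with the automatic threshold) and progenitor-like 33.4. Pericyte-like nuclei at 29.4, erythroid-like at 24.7 (14.2 with the automatic threshold) and Leydig-like at 18.6 CPM (6.34 with it) ended the order, and no neighbours from the progenitor-like class downwards were separated. Surface epithelium-like nuclei held 50.8% of the 12502 Pdgfc UMIs. After thinning, 76.0% (72.2–79.4) of surface epithelium-like nuclei had a Pdgfc UMI, 82.6% of Pax8-led, 23.5% of Sertoli-like and 3.81% of germ-like nuclei, the last at 1.08% with the automatic threshold.

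Pdgfd (ENSMUSG00000032006), the D chain and a ligand of PDGFRB, shared its highest classes with Pdgfc: 1026 CPM (967–1088) in Pax8-led and 619 CPM (599–640) in surface epithelium-like nuclei, with a ratio of 1.66, and 1394 and 671 CPM with the automatic doublet threshold, a ratio of 2.08 (1.93–2.24). Endothelial-like nuclei had 342 CPM (319–367), contractile-like 259 and Leydig-like 234 (224–245). Unlike Pdgfc, then, it was higher in endothelial-like, contractile-like and Leydig-like nuclei than in Sertoli-like nuclei. Mesonephric mesenchyme-like nuclei had 211 CPM, progenitor-like 182 (176–188), immune-like 120.0 (65.3 with the automatic doublet threshold) and pericyte-like 95.6. Sertoli-like nuclei had 68.6 CPM (41.3 with that threshold), germ-like 60.8 (21.1 with it) and erythroid-like 56.7. Each neighbouring pair was separated except the immune-like and pericyte-like, whose ratio was 1.25 (0.895–1.77), and the germ-like and erythroid-like. The pericyte-like UMIs (65) came from 7 of 66 nuclei and the immune-like (82) from 9 of 68, so these 2 places in the order are uncertain. After thinning, a Pdgfd UMI was seen in 4.55% of pericyte-like, 4.62% of immune-like and 7.72% of Sertoli-like nuclei. With the automatic threshold these shares were 3.45%, 6.67% and 6.36%. With the automatic threshold mesonephric mesenchyme-like nuclei (231 CPM) came before Leydig-like nuclei (216 CPM) and were not separated from them (1.07; 0.968–1.19), and no neighbours from the pericyte-like class downwards were separated. In shares of the 15122 Pdgfd UMIs, surface epithelium-like nuclei gave 23.5%, progenitor-like 21.4%, Leydig-like 13.1% and contractile-like 11.3%. The thinned share of nuclei with a Pdgfd UMI was 82.6% in Pax8-led, 55.4% in surface epithelium-like, 43.6% in endothelial-like, 28.8% in Leydig-like and 22.1% in progenitor-like nuclei, against 5.66% in germ-like nuclei (3.5% with the automatic threshold). Pdgfc and Pdgfd were seen together in 43.7% (39.6–47.9) of thinned surface epithelium-like nuclei, where the product of their single shares was 42.1%.

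Pdgfra (ENSMUSG00000029231), which codes for the receptor of A, B and C chains, was highest in the interstitium. Contractile-like nuclei had 669 CPM (650–689) and progenitor-like nuclei 603 CPM (592–615), a ratio of 1.11 (1.07–1.15), and this order turned when doublets were left in (616 against 624 CPM), when filters were stricter (601 against 640 CPM) and with clusters from ATAC alone (553 against 593 CPM). The coarser clustering had no separate contractile-like class. Mesonephric mesenchyme-like nuclei had 412 CPM (389–435) and surface epithelium-like nuclei 279.7 (266–294), with steps of 1.47 times (1.38–1.55) and 1.47 times (1.37–1.58). Then came a group in which neighbours were not separated: endothelial-like at 190.4 CPM, immune-like at 183, pericyte-like at 160.4, Pax8-led at 148 and Leydig-like at 139 (131–147). With the automatic doublet threshold these 5 levels were 49.2, 80.7, 124, 72.0 and 71.1 CPM in the same order, and with classes clustered from RNA alone the immune-like and pericyte-like levels were 104 and 77.0 CPM. Sertoli-like nuclei had 110.1 CPM (104–117), erythroid-like 106 and germ-like 101 (97.1–106), and with that threshold Sertoli-like and germ-like nuclei had 30.4 and 30.6 CPM. The level of the low classes therefore depended on which nuclei counted as doublets, while that of the 2 highest classes moved to 670.2 and 615 CPM. Progenitor-like nuclei had 4.33 times (4.08–4.6) the Leydig-like level, and 8.65 times (7.84–9.57) with the automatic threshold. Progenitor-like nuclei held 46.3% and contractile-like nuclei 19.0% of the 23211 Pdgfra UMIs.

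Pdgfrb (ENSMUSG00000024620), which codes for the receptor of B and D chains, lies on chromosome 18 (61045150 to 61085061, plus strand, GRCm38) and was led by pericyte-like nuclei, the mural cells of small vessels, at 474 CPM (423–528; 322 UMIs). The pericyte-like class was 2.86 times (2.54–3.21) above progenitor-like nuclei at 166 CPM (160–172), which were not separated from mesonephric mesenchyme-like nuclei at 155 CPM (ratio 1.07; 0.97–1.18). A step of 1.80 times (1.52–2.13) led to endothelial-like nuclei at 86.2 CPM, a level that was 18.9 CPM with the automatic doublet threshold and 64.4 CPM without nuclei above 50000 UMIs. The endothelial-like level of this receptor thus moved with the choice of nuclei, as for Pdgfra. Contractile-like nuclei had 79.8 CPM, immune-like 51.2 (7.68 with the automatic threshold) and surface epithelium-like 47.2. Erythroid-like nuclei had 39.5 CPM, Pax8-led 35.5 and Leydig-like 30.3 (26.7–34.3), and with the automatic threshold these 3 levels were 18.9, 16.5 and 7.88 CPM. Germ-like nuclei at 26.0 CPM and Sertoli-like nuclei at 21.0 were lowest, at 6.24 and 7.17 CPM with that threshold. Although pericyte-like nuclei had the highest level, they held 5.53% of the 5821 Pdgfrb UMIs, and progenitor-like nuclei 50.6%.

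**Figure D2:**
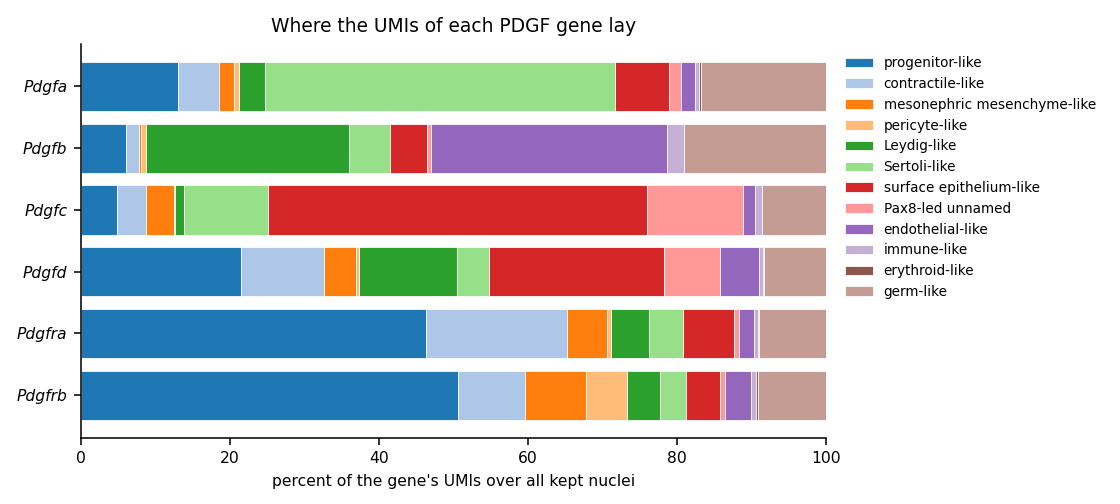
Percent of each PDGF gene's UMIs (x axis, stacked to the whole) that lay in each of the 12 classes of nuclei, by gene (rows). Sertoli-like nuclei give 47.0% for Pdgfa, surface epithelium-like nuclei 50.8% for Pdgfc, and progenitor-like nuclei 46.3% for Pdgfra and 50.6% for Pdgfrb.

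For each receptor, the share of nuclei with a UMI, thinned to 2000 UMIs per nucleus, was highest in the class where its level was highest. A Pdgfra UMI was seen in 68.1% (65.2–71.0) of contractile-like and 65.4% (63.4–67.4) of progenitor-like nuclei, 48.5% of mesonephric mesenchyme-like and 35.3% of surface epithelium-like nuclei. It was seen in 17% (14.4–19.9) of Leydig-like, 12% of Sertoli-like and 9.67% (7.89–11.7) of germ-like nuclei, the last taken as background without a test. With the automatic doublet threshold these last 3 shares were 12%, 7.23% and 6.19%. Without thinning the germ-like share was 41.5%, the Leydig-like 44.7% and the progenitor-like 92.6%, at median depths of 15504.5, 9799.5 and 6733 UMIs. Pdgfrb UMIs were seen in 63.6% (50.9–75.1) of pericyte-like, 28.9% (27.0–30.8) of progenitor-like, 23.6% of mesonephric mesenchyme-like and 13.2% of contractile-like nuclei, and in 3.19% (2.18–4.50) of germ-like nuclei (1.21% with the automatic threshold). The endothelial-like share, from 2 of 94 nuclei, was 2.13% (0.259–7.48), not above the germ-like share, and 1.67% with that threshold. Both receptors were seen in 18.8% (17.2–20.5) of progenitor-like nuclei, where the product of the single shares was 18.9%, and in 9.27% of contractile-like nuclei against a product of 9.01%. Joint detection in these classes was therefore close to what the single shares multiply to. In pericyte-like nuclei it was 15.2% (7.51–26.1) against 10.6%, in surface epithelium-like nuclei 5.61% (3.87–7.83) against 3.46% and in germ-like nuclei 1.13% against 0.308%. With the automatic doublet threshold joint detection in these 3 classes was 13.8% (6.15–25.4) against 14.1%, 1.99% (0.957–3.63) against 2.27% and 0.269% (0.0326–0.969) against 0.0750%.

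**Figure D3:**
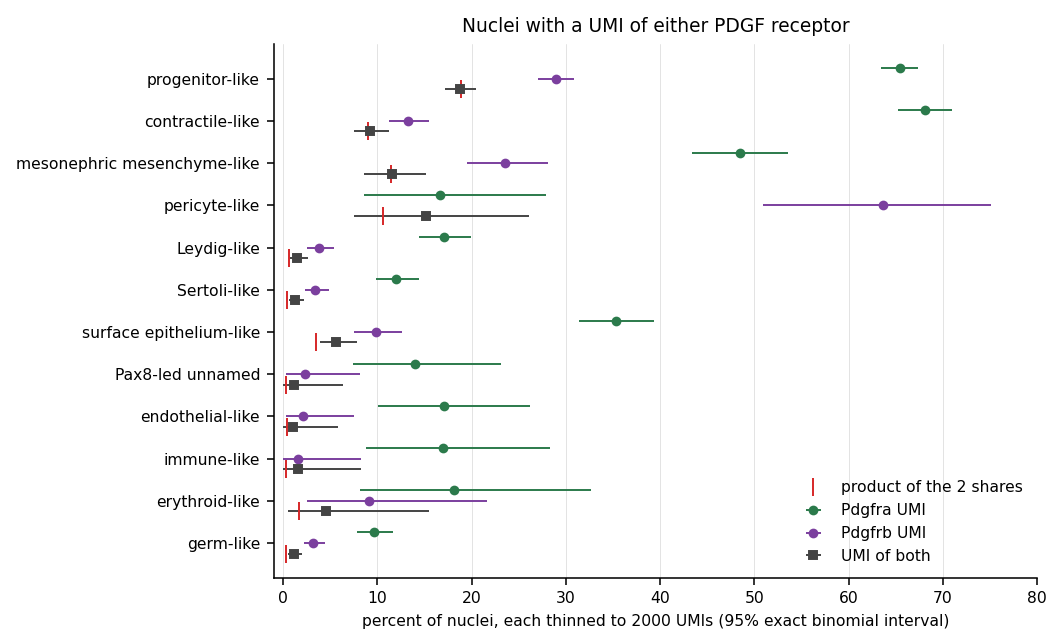
Percent of nuclei, each thinned to 2000 UMIs, with a UMI of Pdgfra, of Pdgfrb or of both (points, with exact 95% binomial intervals), by class, and the product of the 2 single shares (red ticks). Pdgfra leads in contractile-like (68.1%) and progenitor-like nuclei (65.4%) and Pdgfrb in pericyte-like nuclei (63.6%).

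Levels of different genes were set side by side only per kilobase of gene (CPM per kb), since long genes gather more reads from nuclear RNA. On that scale Pdgfra exceeded Pdgfrb in progenitor-like nuclei, at 13.1 against 4.15 CPM per kb, and Pdgfrb exceeded Pdgfra in pericyte-like nuclei, at 11.9 against 3.49. Sertoli-like nuclei had 3.39 CPM per kb of Pdgfa, more than of Pdgfc (0.819) and Pdgfd (0.326), although their CPM of Pdgfc was higher. In endothelial-like nuclei Pdgfb stood at 2.48 and Pdgfd at 1.63 CPM per kb, and in surface epithelium-like nuclei Pdgfc at 6.23 and Pdgfd at 2.94. In contractile-like nuclei Pdgfra reached 14.6 CPM per kb, the highest of the 6 genes in any class. For 5 of the genes an overlapping gene is annotated on the other strand. These are Gm16000 (antisense to Pdgfc), Ddi1 (opposite to Pdgfd), 6330403L08Rik (antisense to Pdgfa), Gm41361 (antisense to Pdgfb) and Gm42802 (antisense to Pdgfra). The study counted with Cell Ranger ARC at default settings and names no strand, and whether their reads were counted with the PDGF genes was not tested.

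Several classes were made of 2 clusters, and the PDGF genes differed between them. In progenitor-like nuclei 1 cluster (759 nuclei) is called cycling from its leading genes, such as Neil3, Depdc1a and Cdc25b, without a cycle score. The cycling cluster had more Pdgfc than the other (1522 nuclei), 54.5 against 16.8 CPM. It had less Pdgfrb, 137 against 188 CPM, which gives the other cluster 1.37 times (1.27–1.48) the Pdgfrb level. Pdgfra differed less, at 569.5 CPM in the cycling and 629.6 in the other cluster. In Sertoli-like nuclei Pdgfa was 83.3 CPM in the larger cluster (584 nuclei) and 57.4 in the smaller (235 nuclei), a ratio of 1.45 (1.24–1.71), while Pdgfra went the other way, 71.7 against 164 CPM (0.438; 0.386–0.497), although the whole class had 30.4 CPM of Pdgfra with the automatic doublet threshold, below both clusters. In endothelial-like nuclei, 33 nuclei led by Gja5, Sox17, Bmx and Dll4 had 437 CPM (401–475) of Pdgfd against 235 (207–266) in the other 62, and 121 against 46.7 CPM of Pdgfrb. The 33 nuclei held 1229283 UMIs and the 62 held 1092233, at medians of 9317 and 9408 per nucleus, so deep nuclei weighed more in the levels of the 33. Pdgfb was 53.7 CPM in those 33 nuclei and 40.3 in the other 62, which gives the 62 nuclei 0.750 times (0.5–1.12) the level of the 33, not separated from 1. With the automatic doublet threshold the whole endothelial-like class had 18.9 CPM of Pdgfrb, below both clusters. In germ-like nuclei the 2 clusters (637 and 337 nuclei) had 116 and 51.9 CPM of Pdgfra and 59.0 and 27.4 CPM of Pdgfc, and with that threshold the whole germ-like class had 30.6 and 7.32 CPM, below both clusters.

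Between the cords and the interstitium, Pdgfa and Pdgfc were higher in Sertoli-like nuclei, and Pdgfd and both receptors in progenitor-like nuclei. Of the 5 members with enough UMIs (100 over both classes), 2 were at least 2-fold higher in Sertoli-like than in progenitor-like nuclei, Pdgfa and Pdgfc (4.36 times; 3.96–4.81), where 12.8% of 11926 genes were. The other 3 were at least 2-fold lower, Pdgfd (0.377), Pdgfra (0.182; 0.171–0.194) and Pdgfrb (0.127; 0.110–0.146), where 12.4% of genes were. With the automatic doublet threshold these 3 ratios were 0.230 (0.203–0.260), 0.0494 (0.0430–0.0567) and 0.0426 (0.0315–0.0563). Pdgfb fell under the UMI minimum. The median log2 ratio was -1.41 over these 5 genes, which lay on both sides, and 0.12 over all genes tested, and at a minimum of 20 UMIs, with Pdgfb included, it was -0.33 over the 6 genes. Of 8 tested genes for ligand processing and binding, none was higher and 3 were lower in Sertoli-like nuclei: Nrp1 (0.176), a co-receptor, Lrp1 (0.336), an endocytic receptor, and Cspg4 (0.381), a proteoglycan that binds PDGF-A. Of 16 tested signalling genes 1 was higher, the kinase Src (2.07), and none was lower.

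Between progenitor-like and Leydig-like nuclei the receptors and Pdgfb lay on opposite sides. Both receptors, 2 of 6 members, were at least 2-fold higher in progenitor-like nuclei, with Pdgfrb at 5.46 times (4.80–6.22), against 14.6% of 11736 genes, and 1 member, Pdgfb, was at least 2-fold lower, against 11.1%. Pdgfrb stood at 21.4 times (15.98–29.3) with the automatic doublet threshold. Pdgfa (1.77) and Pdgfc (1.79) were higher in progenitor-like nuclei by less than 2-fold, and Pdgfd was lower (0.777). With that threshold Pdgfa, at 2.11 (1.46–3.16), and Pdgfc, at 4.90 (3.51–7.05), passed 2-fold, while Pdgfb (19 and 77 UMIs) fell under the UMI minimum. The share of all genes past 2-fold was not counted in that setting. The median log2 ratio was 0.83 over the 6 genes and -0.03 over all. Of 8 tested processing and binding genes 3 were higher, Plat (2.69), which codes for the tissue plasminogen activator that cuts PDGF-C, Nrp1 (3.69) and Cspg4 (4.18), and of 16 signalling genes none passed 2-fold either way. Among receptor kinases of the same class, Kit was the 1 gene with enough UMIs, and it ran against the PDGF receptors at 191 CPM in the Leydig-like class and 20.8 CPM in the progenitor-like class.

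In the vessel wall Pdgfb and Pdgfd were higher in endothelial-like and Pdgfrb in pericyte-like nuclei, with few nuclei on either side. Of 5 tested members, 3 were at least 2-fold higher in endothelial-like nuclei, Pdgfb (16.1 times; 4.35–135), Pdgfd (3.58; 2.78–4.68) and Pdgfc (2.78), against 8.52% of 5308 genes, and 1 was lower, Pdgfrb (0.182; 0.152–0.218), against 4.75%. Pdgfb rested on 110 against 2 UMIs, and with the automatic doublet threshold Pdgfc was at 0.810 (0.377–1.72) and Pdgfrb at 0.0356 (0.0169–0.0665), the last from 10 against 258 UMIs. Pdgfb (40 and 2 UMIs), Pdgfc (15 and 17) and Pdgfra (26 and 60) had fewer than 100 UMIs in that setting, which left Pdgfd and Pdgfrb as the tested members. Pdgfra was at 1.19 and, with that threshold, at 0.398 (0.241–0.640). Against progenitor-like nuclei, pericyte-like nuclei had 1 of 5 tested members at least 2-fold higher, Pdgfrb, where 5.1% of 10666 genes were, and 1 lower, Pdgfra (0.266; 0.218–0.321), where 8.36% were. The pericyte-like class thus had the reverse receptor balance to the progenitor-like class. Of the 8 tested processing and binding genes, Nrp1 (3.27), Plat (3.08) and Cspg4 (4.25) were higher in pericyte-like nuclei and Pcsk5 (0.439), a proprotein convertase, was lower, but Cspg4 was also 1 of the markers that named the class. Of 16 signalling genes 1 was higher in pericyte-like nuclei, Gab1 (2.58), an adaptor, as was Kit (2.47). Between endothelial-like and pericyte-like nuclei, Cspg4 (0.149) was lower in the endothelial-like class of 5 tested processing and binding genes, and Nck1 (2.04), an adaptor, was higher of 14 signalling genes. Nrp1 was high on both sides of the vessel wall, at 877 CPM in pericyte-like and 788 in endothelial-like nuclei, against 268 in progenitor-like nuclei.

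In the surface epithelium the secreted latent ligands were high and both receptors low relative to progenitor-like nuclei. Of 5 tested members 2 were at least 2-fold higher in surface epithelium-like nuclei, Pdgfc (33.2 times; 30.5–36.1) and Pdgfd (3.4; 3.25–3.57), against 7.39% of 11420 genes. Both receptors were at least 2-fold lower, Pdgfra at 0.464 and Pdgfrb at 0.285, against 6.19% of genes. Pdgfa was at 1.71. The processing and binding list had 2 genes higher, Plat (2.57) and Pdgfrl (2.53), a PDGF receptor-like gene, and 1 lower, Nrp1 (0.331), of 8 tested, and the signalling list had 1 of 16 lower, the kinase Fyn (0.341).

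ATAC peaks within 1 kb of a gene start were compared in classes clustered from RNA alone, since the joint classes had used chromatin. The PDGF genes had 8 such promoter peaks: 3 at Pdgfa, 2 at Pdgfra, 1 each at Pdgfc, Pdgfd and Pdgfrb, and none at Pdgfb. Levels are cut CPM, the transposase cuts in the peak per 1000000 cuts in all peaks of the class, and since cuts come in pairs the intervals are too narrow. Of the 8 promoter peaks, none was at least 2-fold higher or lower in progenitor-like than in Leydig-like nuclei, where 12.8% of 25160 promoter peaks were higher and 8.29% lower. With the automatic doublet threshold the first Pdgfra start was just past 2-fold higher, at 2.0035 (1.16–3.74), and the share of all promoter peaks was not counted there. In Sertoli-like against progenitor-like nuclei 1 of 8 was higher, that of Pdgfc, against 11.9% of 25848, and 2 were lower, the first Pdgfra start and Pdgfrb, against 13.8%. In surface epithelium-like against progenitor-like nuclei none was higher, against 8.69% of 24934, and 1 was lower, the first Pdgfra start, against 12.8%.

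At Pdgfa (chromosome 5 of GRCm38, as for all positions here, 138976014 to 138997370, minus strand) the 3 promoter peaks together had 60.5 cut CPM in Sertoli-like, 59.9 in surface epithelium-like, 48.7 in germ-like, 46.4 in progenitor-like, 45.1 in Leydig-like, 44.4 in contractile-like and 33.2 in mesonephric mesenchyme-like nuclei. Sertoli-like nuclei were at 1.30 times (1.09–1.56) the progenitor-like level, against 6.65 times for the RNA. The peak centred 2238 bases into the gene, with 632 cuts, covers an annotated start at 138994953 and did not separate the 2 classes (0.974; 0.736–1.28). The peak centred at -430.5 bases, with 279 cuts, was higher in Sertoli-like nuclei (1.78; 1.22–2.57). At Pdgfc (chromosome 3, 81036416 to 81214040, plus strand) Sertoli-like nuclei had 28.7 and surface epithelium-like nuclei 25.9 cut CPM, against 13.7 in progenitor-like, 13.7 in contractile-like and 10.4 in Leydig-like nuclei. The Sertoli-like and surface epithelium-like ratios to progenitor-like nuclei were 2.10 (1.57–2.78) and 1.89 (1.32–2.66). Endothelial-like nuclei were highest at this peak, at 35.9 cut CPM from 16 cuts, 2.62 times (1.45–4.43) the progenitor-like level. They were not separated from Sertoli-like nuclei (1.25; 0.685–2.15), and their Pdgfc RNA was below the Sertoli-like level. The Pax8-led nuclei, highest in Pdgfc RNA, had 14.9 cut CPM from 4 cuts. At Pdgfd (chromosome 9, 6168584 to 6378850, plus strand) the promoter peak did not separate the large classes, with ratios of 0.909 for Sertoli-like, 1.16 for surface epithelium-like and 1.20 for Leydig-like over progenitor-like nuclei, each with an interval that held 1.

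Pdgfb (chromosome 15, 79995874 to 80014977, minus strand) had 1 peak in the gene and its 10 kb flanks, in an intron with its centre 2389 bases from the start. It had 52.8 cut CPM in pericyte-like nuclei from 8 cuts and 44.9 in endothelial-like nuclei from 20 cuts, not separated (1.18; 0.448–2.79). Germ-like nuclei had 29.2, the progenitor-like class 26.6 and the Leydig-like class 15.8. Leydig-like nuclei, with more Pdgfb RNA than progenitor-like nuclei, were thus the lower class at this peak (progenitor-like over Leydig-like 1.69; 1.18–2.48). At the Pdgfrb start progenitor-like nuclei had 27.9 cut CPM, surface epithelium-like 22.7, Leydig-like 17.1, contractile-like 15.5, Sertoli-like 10.6 and germ-like 10.2, and pericyte-like nuclei 52.8 from 8 cuts. The pericyte-like ratio to progenitor-like nuclei was 1.90 (0.809–3.79), and that of progenitor-like to Leydig-like nuclei 1.63 (1.15–2.35). An intron peak of Pdgfrb, centred 12080.5 bases from the start, was not among the 2 leading peaks of the gene. It is given as the peak away from the start with the most cuts (587), and the classes were farther apart there. Progenitor-like nuclei had 36.1 cut CPM and mesonephric mesenchyme-like nuclei 38.4, against 12.2 in Leydig-like and 8.26 in Sertoli-like nuclei. Progenitor-like over Leydig-like was 2.97 (2–4.57). In Pdgfd, an intron peak centred 100164 bases from the start with 208 cuts had 16.7 cut CPM in contractile-like and 10.8 in progenitor-like nuclei, and 3.16 in Leydig-like and 1.32 in Sertoli-like nuclei, the last 2 from 7 and 4 cuts. A peak centred 2568 bases into Pdgfd was 2.11 times (1.32–3.28) higher in surface epithelium-like than in progenitor-like nuclei, and a peak outside Pdgfa, centred 31326 bases from its start, 3.72 times (2.44–5.63).

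Pdgfra (chromosome 5, 75152292 to 75198215, plus strand) had 2 start sites with a peak each, and the classes spread further at the first than at the second. At the first start (75151775 to 75152630, 421 cuts), whose upstream sequence is printed above, contractile-like nuclei had 24.9 cut CPM, progenitor-like 23.2 (20.1–26.6) and mesonephric mesenchyme-like 18.3, against 12.6 in Leydig-like, 9.18 in surface epithelium-like, 5.55 in germ-like and 3.96 in Sertoli-like nuclei. Progenitor-like nuclei had 5.85 times (3.28–11.5) the Sertoli-like, 4.18 times (2.77–6.55) the germ-like and 1.84 times (1.23–2.83) the Leydig-like level. At the second start (75155663 to 75156566, 772 cuts), centred 3822.5 bases into the gene, the range among the 7 largest classes was narrow, from 38.4 in mesonephric mesenchyme-like to 16.5 in Sertoli-like nuclei, with 30.3 in progenitor-like, 30.5 in germ-like, 28.9 in contractile-like and 26.2 in Leydig-like nuclei. Progenitor-like over germ-like was 0.993 (0.808–1.22) there and progenitor-like over Leydig-like 1.16 (0.870–1.57). The 3 classes highest at the first start were the 3 highest in Pdgfra RNA, in the same order, although contractile-like and progenitor-like nuclei had overlapping intervals there, and this was not so at the second. A peak outside the gene, upstream of the first start and centred at -3590 bases (75148281 to 75149123, 509 cuts), was chosen after its values were seen as the peak away from the starts with the most cuts. It had 30.7 cut CPM (27.1–34.5) in progenitor-like, 27.1 in mesonephric mesenchyme-like and 21.6 in contractile-like nuclei, against 12.6 in germ-like, 10.8 in Leydig-like, 7.02 in surface epithelium-like and 6.28 in Sertoli-like nuclei, and none in endothelial-like nuclei, which allows up to 8.29. Progenitor-like nuclei had 2.83 times (1.86–4.50) the Leydig-like and 4.88 times (3.07–8.24) the Sertoli-like level, and with the automatic doublet threshold 6.36 (2.88–17.5) and 28.6 (7.83–237) times. With that threshold the first start gave 2 times over Leydig-like and 14 times over Sertoli-like nuclei, and the second start 0.843 (0.606–1.20) over Leydig-like nuclei. The profile of cuts within 3 kb of the first starts shows progenitor-like nuclei above the other plotted classes at Pdgfra and Pdgfrb, and Sertoli-like and surface epithelium-like nuclei above them at Pdgfc.

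**Figure D4:**
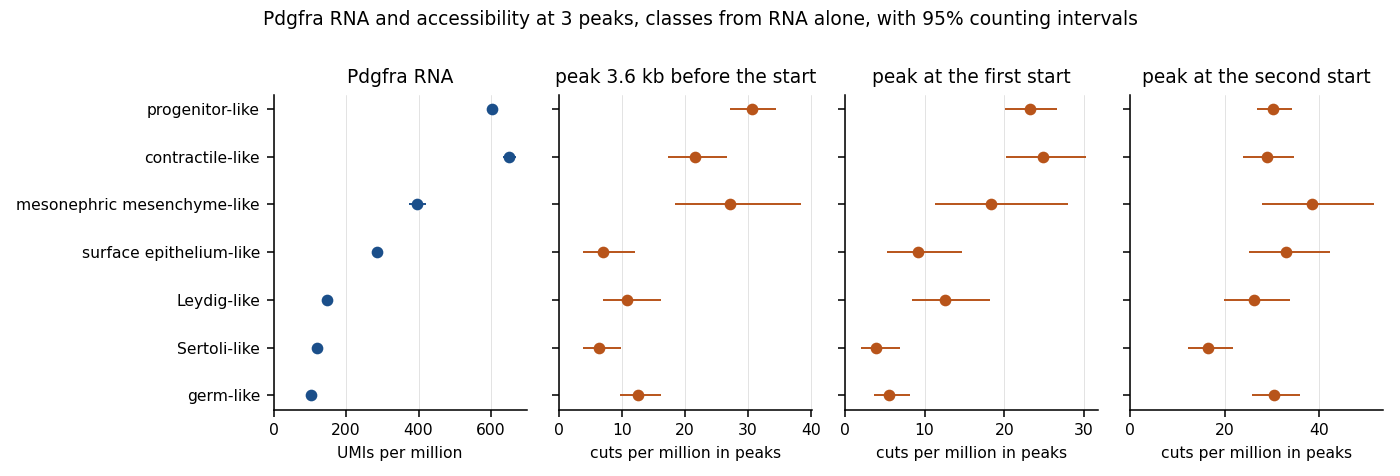
Pdgfra RNA (CPM) and accessibility of 3 Pdgfra peaks (cut CPM) in the 7 largest classes clustered from RNA alone, as points with 95% counting intervals. Progenitor-like nuclei lie above Leydig-like nuclei at the upstream peak (30.7 against 10.8) and the first start (23.2 against 12.6), and the intervals overlap at the second start (30.3 against 26.2).

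**Figure D5:**
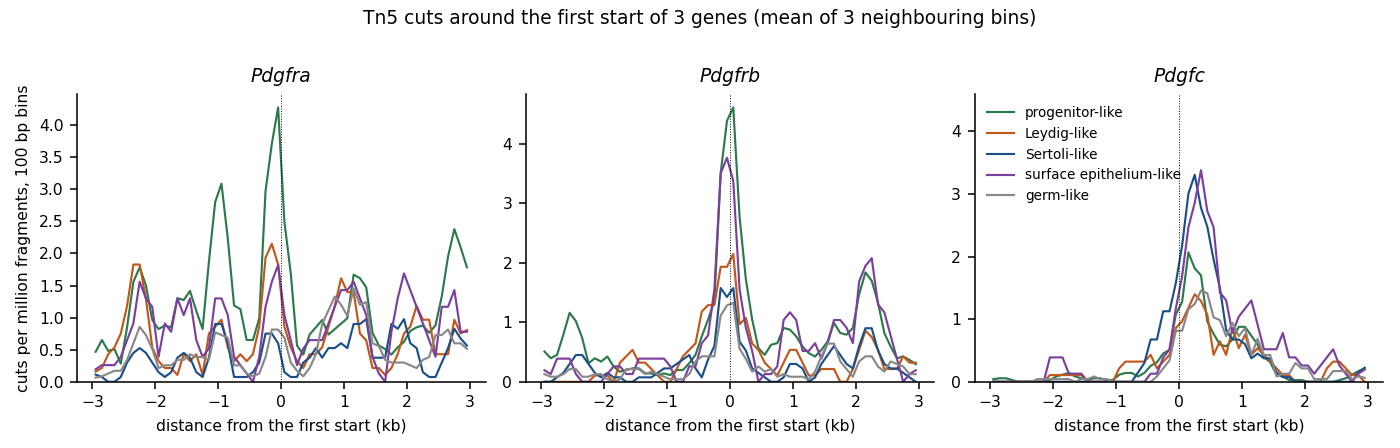
Transposase cuts per 1000000 fragments in 100 bp bins (mean of 3 neighbouring bins, y axis) against distance from the first start in kb (x axis) for Pdgfra, Pdgfrb and Pdgfc, with 1 line for each of 5 classes (progenitor-like, Leydig-like, Sertoli-like, surface epithelium-like and germ-like). Among these 5, progenitor-like nuclei peak highest at Pdgfra and Pdgfrb, and Sertoli-like and surface epithelium-like nuclei at Pdgfc.

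A highest class at least 2 times the second was held by 14.7% of 63893 peaks with at least 100 cuts, and by 1 of 6 such peaks of Pdgfra, 2 of 10 of Pdgfrb and none of the 6 of Pdgfa, 1 of Pdgfb, 2 of Pdgfc and 5 of Pdgfd. The Pdgfra peak, centred at 5102.5 bases, was led by immune-like nuclei at 39.0 cut CPM from 6 cuts. Of the 2 Pdgfrb peaks, one, centred at 48254.5 bases, was led by pericyte-like nuclei at 39.6 from 6 cuts, 2.52 times (0.819–6.62) the next class, and the other, centred at -8922.5 bases, by germ-like nuclei at 17.7 against 8.58 in progenitor-like nuclei (2.06; 1.5–2.85). The counts behind 2 of these 3 peaks are too small to set the order of the classes.

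The genes whose levels ran most like each member across the 11 named classes are given as a description, by Pearson correlation of log2(CPM + 1) over 13473 genes, where all points come from 1 library. Sulf2 (0.99), St8sia2 (0.98) and Sostdc1 (0.98) were nearest to Pdgfra, and Ngfr (0.95), Notch3 (0.95) and Rem1 (0.94) to Pdgfrb. Tmprss5 (0.94), Slc27a6 (0.93) and Stxbp6 (0.92) were nearest to Pdgfa, and Spata6 (0.93), Klf7 (0.90) and Sat1 (0.90) to Pdgfb. Wt1os (0.92), Plscr2 (0.90) and Atp1b1 (0.90) were nearest to Pdgfc, and Tspan6 (0.89), Tle3 (0.88) and Cavin1 (0.88) to Pdgfd. With a pseudocount of 10 in place of 1, 1 of the 3 genes stayed for Pdgfa and none for Pdgfb and Pdgfc, so these names depend on the pseudocount.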

How the data were processed

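RNA and chromatin were measured in the same nuclei of E14.5 testes, 1 library per assay. The authors deposited UMI counts per gene and transposase cut counts per peak (Cell Ranger ARC 2.0.1, mm10), not corrected for free RNA or doublets, and a fragment list. The study's own removal of both is not in these counts. Nuclei were kept with at least 500 genes, at most 10% mitochondrial, 10% ribosomal protein and 0.5% haemoglobin UMIs, and 250 to 25000 fragments at peaks making up at least 20% of fragments. Doublets were ranked by Scrublet (scanpy 1.11.5) and removed at 0.8% per 1000 nuclei. Seurat 5.3.0 (R 4.3.3) joined RNA (2000 variable genes) and ATAC components, without the PDGF genes and peaks within 250 kb of their starts. Resolution 0.6 was taken after the data were seen, because at the planned 0.3 the largest cluster mixed markers of 2 classes. Clusters were named by the highest mean standardised log2 CPM among 14 marker lists, with at least 3 detected markers and leading genes that did not go against the name. Intervals are exact Poisson for levels, exact conditional binomial for ratios and Clopper-Pearson for shares (scipy 1.17.1). Calls of a 2-fold ratio needed at least 100 UMIs, or 20 cuts at promoter peaks, over both classes. Genes named are the 6 members, listed pathway genes at least 2-fold apart and the 3 genes most alike in pattern. Beside promoter peaks, the plan named the 2 leading peaks per member, those with the largest ratio of highest to second class, and not all of them are given. The peaks of Pdgfra and Pdgfrb with the most cuts away from the starts were outside that plan. The code was tested on simulated data. The members and lists were chosen with earlier results of these data known. Alternatives were other doublet settings, stricter filters, clustering from either assay, an upper UMI limit, unsummed means, other promoter distances, fragments in place of cuts, and other minimums and pseudocounts.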

Additional observations from a re-analysis of the deposited data

How the results depend on the processing

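Of the 6 main ratios none changed direction under any alternative run. The Pdgfra ratio of progenitor-like over Leydig-like nuclei, 4.33 as reported, was 8.65 with the automatic doublet threshold, 3.74 without doublet removal, 3.39 with stricter minimums, 4.77 with clusters from ATAC alone and 5.88 as a mean over nuclei. The Pdgfc ratio of surface epithelium-like over progenitor-like nuclei, 33.2 as reported, was 39.5, 45.2, 46.2, 20.1 and 43.7 under the same 5 settings in that order, and 25.1 at resolution 0.3. The Pdgfrb ratio of pericyte-like over progenitor-like nuclei, 2.86 as reported, was 2.47 without doublet removal and 3.27 at resolution 0.3. The Pdgfa ratio of Sertoli-like over progenitor-like nuclei stayed between 5.73 and 7.48, the Pdgfb ratio of endothelial-like over pericyte-like nuclei between 11.6 and 29.4, and the progenitor-like over Leydig-like ratio of the promoter peaks at both Pdgfra starts summed, 1.38 (1.09–1.76) with the settings used here, stayed between 1.13 and 1.57, with an interval that held 1 at 1.13. The 6 genes kept their highest class in 5 or 6 cases, except with clusters from ATAC alone, where 1 did: that clustering had no endothelial-like, pericyte-like, erythroid-like or Pax8-led class and so gave no value for the Pdgfb and Pdgfrb ratios. The cause of the other shifts was not tested. By level, 25 of 72 values moved by over 1.5 times with the automatic threshold, 19 as means over nuclei, 10 with clusters from RNA alone, 10 without nuclei above 50000 UMIs, 5 without doublet removal and 3 with stricter minimums, 12 of 48 moved so with clusters from ATAC alone and none of 66 at resolution 0.3. At 0.3 clusters were named by the highest marker score alone, so the progenitor-like class there took in the mixed largest cluster. Some levels at 0.3 equalled those reported, such as Pdgfb in endothelial-like (47.4 CPM) and Pdgfrb in pericyte-like nuclei (474 CPM). Resolution 0.3 is therefore a weak check. At a minimum of 20 in place of 100 UMIs, the listed pathway genes past 2-fold numbered 6, 5, 6, 5 and 2 in place of 4, 4, 6, 4 and 2, in the order Sertoli-like over progenitor-like, progenitor-like over Leydig-like, pericyte-like over progenitor-like, surface epithelium-like over progenitor-like and endothelial-like over pericyte-like nuclei. More listed genes could be tested at the lower minimum, and the share of all genes past 2-fold was not counted there, so these numbers cannot be set against one. Depth limited Pdgfb most, with 347 UMIs, and the pericyte-like, immune-like and erythroid-like classes at the peaks. No paired analysis was possible because each assay had 1 library and the data used here had 1 group.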
